A study of Drosophila melanogaster with 12 samples.

Results

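Cofactors of the ecdysone receptor were followed in Drosophila organs in culture: taiman (tai), Smrter (Smr), trithorax-related (trr), rigor mortis (rig), bonus (bon) and Ncoa6. Each probe set that the annotation of the array assigned to 1 of these 6 genes was taken, whatever its values, which gave 11 of the 13966 probe sets. There were 2 for tai, 2 for Smr, 3 for rig, 2 for bon, and 1 each for trr and Ncoa6. Organs of w1118 larvae that had begun to wander, with partly blue guts shortly before pupariation, were held for 1 h in medium and then treated for 6 h at 25 °C. The 4 groups of 3 arrays were organs treated with 5 µM 20-hydroxyecdysone (20E, the steroid hormone that starts metamorphosis), with 5 µM 20E plus 85 µM cycloheximide (an inhibitor of protein synthesis), with 85 µM cycloheximide, and with no hormone. Replicates were independent experiments, and the number of wells per array was not given. Each well pooled the organs of 8 animals, although the labels give whole animals as the source. A change in a few organs, fewer cells of a type and less RNA per cell therefore cannot be told apart in these values.

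20E binds the ecdysone receptor, a heterodimer of the nuclear receptors EcR and Ultraspiracle (Usp). Without hormone the receptor recruits corepressors such as Smrter, and with hormone it recruits coactivators such as Taiman, a member of the p160 family, and Trithorax-related, which methylates histone H3. The induced early genes, among them Eip74EF and Eip75B, encode transcription factors that pass the signal on. Genes induced by 20E when protein synthesis is blocked are taken as its primary response, and this is the question that the comparison of 20E plus cycloheximide with cycloheximide addresses.

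The values were linear intensities from dChip, and 15.7% to 17.5% of the values of an array lay under 50. Replicates of a group correlated at 0.983 to 0.993 (Pearson, over all probe sets of a pair of arrays). Marker genes of salivary gland (6 measured), fat body (3), midgut (6), muscle (3), nervous system (4) and testis (8), all but 1 nervous system marker with a mean over 50, were measured, and the summed intensity of each list overlapped between the groups. The testis markers, for example, summed to 2727 to 4002 with 20E, 2184 to 4006 with 20E plus cycloheximide, 2260 to 3598 with cycloheximide and 2199 to 3192 without hormone. Each testis marker was higher with 20E than without hormone, by log2 differences from 0.08 (janB) to 0.74 (dj). None of them passed the threshold given below. Differences are given as log2 values from 1 limma fit of all 4 groups, with a standard error (SE). The threshold for a call was an adjusted p under 0.10 (Benjamini-Hochberg over all probe sets) with a change of at least 1.3-fold in either direction.

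The cofactor transcript that responded to 20E was tai, and it did so on 1 of its 2 probe sets, 146075_at. Its intensities were 82.0, 77.5 and 80.0 with 20E, against 61.6, 60.1 and 62.2 without hormone. The arrays of the groups did not overlap, and the lowest 20E array lay well above the highest array without hormone. The mean was 79.8 ± 2.28 with 20E and 61.3 ± 1.07 without hormone (SD, n = 3 each), a log2 difference of 0.38 (SE 0.07, 95% confidence interval 0.23 to 0.53, limma adjusted p = 0.0223). This change lay at the fold limit. It was no longer called when replicate 2 of the no hormone group was left out (0.37, adjusted p = 0.115), nor when 20E replicate 1 was (0.36, adjusted p = 0.0662), since the change was then just under the limit.

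When protein synthesis was blocked, the response of tai to 20E was larger. On 146075_at the arrays read 113.5, 127.0 and 120.8 with 20E plus cycloheximide, against 58.8, 56.3 and 65.6 with cycloheximide. All arrays with the hormone were thus far above all arrays without it. The mean was 120.4 ± 6.74 with 20E plus cycloheximide and 60.2 ± 4.78 with cycloheximide (SD, n = 3 each), a 2.00-fold change. The log2 difference was 1.00 (SE 0.07, interval 0.85 to 1.16, limma adjusted p = 3.41e-05), which was the 4th smallest p and the 33rd largest increase among all 13966 probe sets. It lay between 0.84 and 1.06 under the 17 alternative settings in which this probe set was tested, and it was called under each of them (adjusted p up to 0.00647).

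The difference between both effects of 20E was itself tested. On 146075_at the log2 effect of 20E in the presence of cycloheximide exceeded that without it by 0.62 (SE 0.10, interval 0.40 to 0.84, limma adjusted p = 0.0842), the 8th smallest p of all probe sets. In this test, which had no fold limit, 0.136% of all probe sets were called and 0.0788% were called higher, and 146075_at was the only one of the 11 (1 of 11). The other probe sets of the cofactors had adjusted p-values from 0.236 upward. The call of tai was close to the threshold: it ended without any one of the 3 no hormone arrays (adjusted p = 0.113, 0.222 and 0.181 for replicates 1, 2 and 3), the 3 arrays with 20E (0.107, 0.243 and 0.195), replicates 1 and 3 of 20E plus cycloheximide (0.103 and 0.226) or cycloheximide replicate 1 (0.186). The size of the difference stayed between 0.53 and 0.68 over 20 alternative settings.

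The order of the groups on 146075_at was 20E plus cycloheximide, 20E, no hormone and cycloheximide. Each of the upper steps passed the test: 20E plus cycloheximide exceeded 20E by 0.59 (SE 0.07, limma adjusted p = 0.00205), with arrays that did not overlap. The lowest pair did not differ beyond its spread. Cycloheximide alone gave a difference of -0.03 against no hormone (interval -0.18 to 0.13, adjusted p = 0.850), and its arrays lay on both sides of those without hormone.

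**Figure D1:**
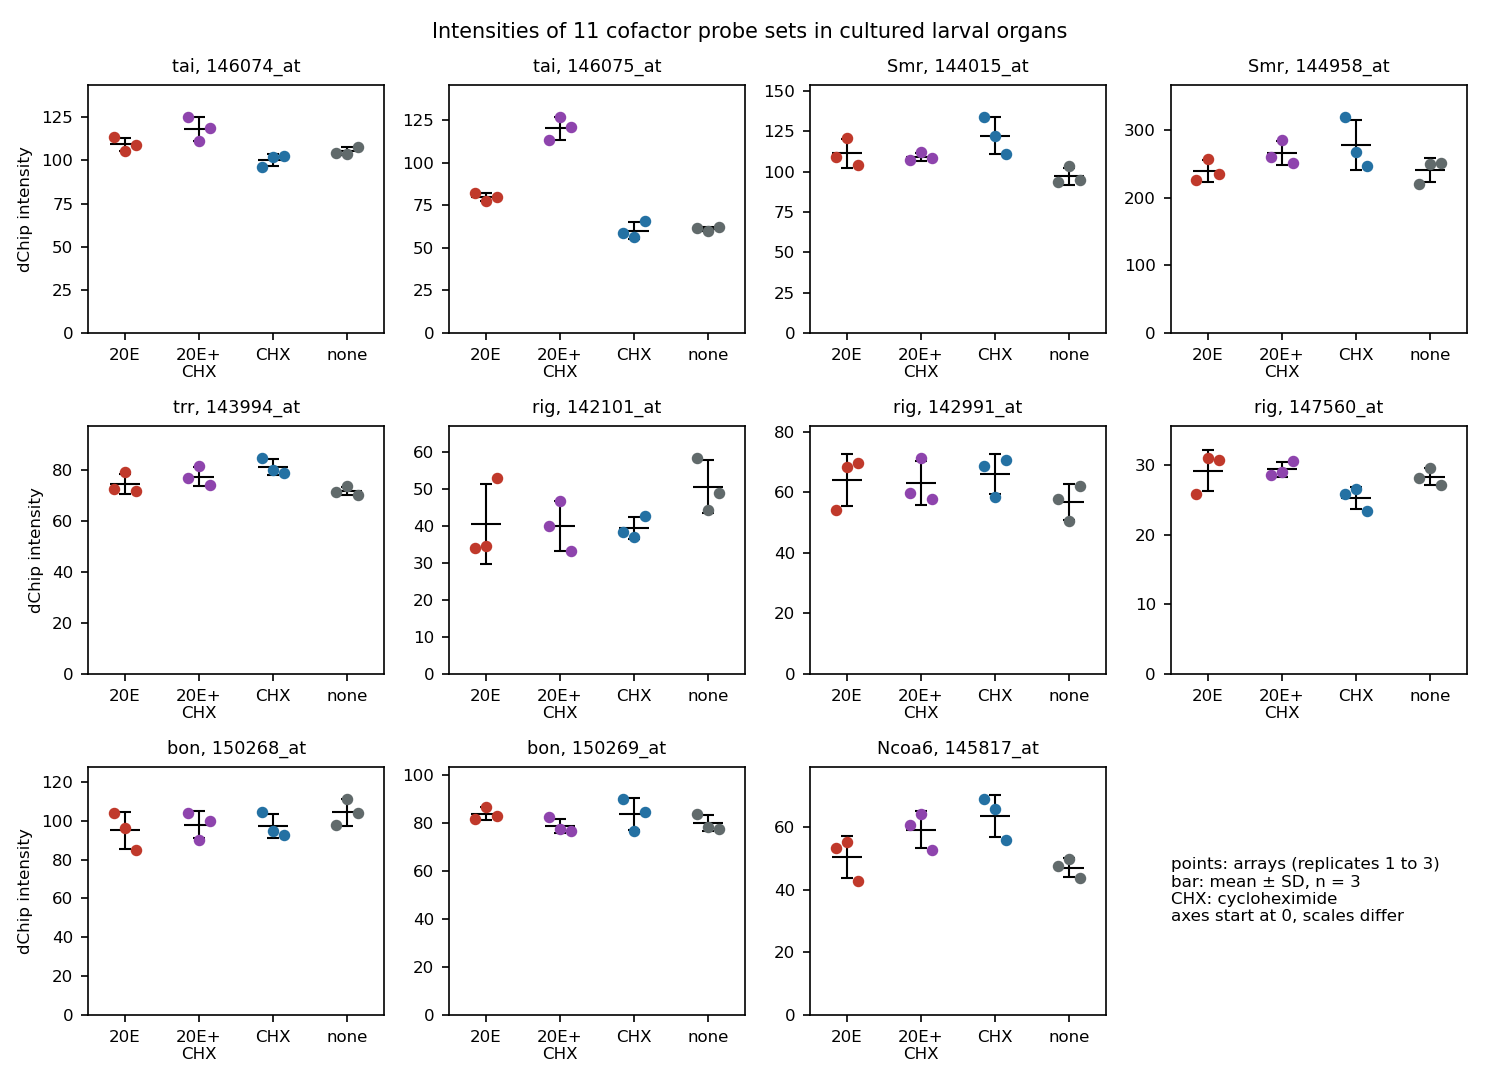
dChip intensity (linear, axes starting at 0 with different scales) of the 11 probe sets of the cofactor genes in each of the 12 arrays, by treatment; points are arrays and bars the mean ± SD of 3 arrays. On tai 146075_at the arrays with 20E plus cycloheximide read 113.5 to 127.0 and those with 20E 77.5 to 82.0, above every array of the groups without 20E.

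The other probe set of tai, 146074_at, showed a much smaller response. With 20E alone it read 113, 105 and 109, against 104, 104 and 108 without hormone, and the groups overlapped (log2 difference 0.05, SE 0.06, interval -0.08 to 0.19, limma adjusted p = 0.738). With 20E plus cycloheximide it read 125, 111 and 119, against 96.0, 102 and 103 with cycloheximide. Here the arrays did not overlap, but the difference of 0.24 (SE 0.06, interval 0.10 to 0.38) was not called, with an adjusted p of 0.140.

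The unequal response of the tai probe sets was also seen within arrays. The log2 ratio of 146075_at over 146074_at was larger with 20E than without hormone by 0.33, and larger with 20E plus cycloheximide than with cycloheximide by 0.76. The arrays of the groups did not overlap in either comparison, and the exact permutation test gave p = 0.1, the smallest that 3 against 3 arrays allow (two-sided). The ratios of 5 pairs of probe sets of the cofactors were examined after the values were seen, and arrays without overlap, with the same p, came in 7 of 20 tests. With 20E against no hormone they included rig 142101_at over 142991_at (-0.51) and Smr 144015_at over 144958_at (0.20). RefSeq annotates 6 transcripts for tai, which lies on chromosome arm 2L. Which of them each probe set detects was not analysed here. Counted by gene, with the brighter probe set standing for each gene, tai was not called in any of the comparisons.

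**Figure D2:**
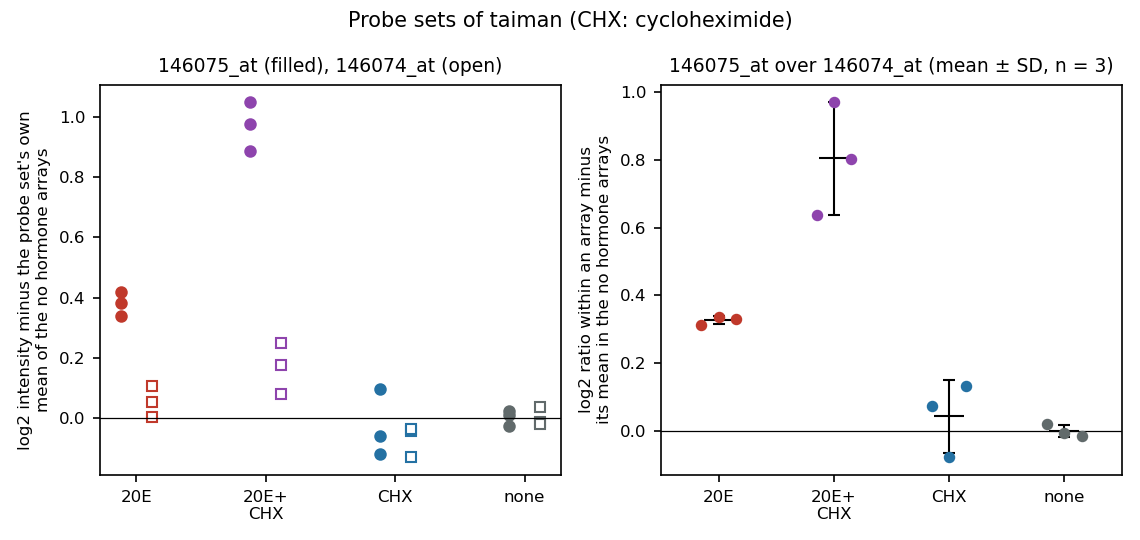
The 2 probe sets of tai by treatment. Left, log2 intensity of each array minus the mean of the same probe set in the no hormone arrays; right, the log2 ratio of 146075_at over 146074_at within each array minus its mean in the no hormone arrays, with mean ± SD (n = 3). The filled points of 146075_at rise further with 20E than the open squares of 146074_at, and the ratio is larger by 0.33 with 20E than without hormone and by 0.76 with 20E plus cycloheximide than with cycloheximide.

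Of the 11 probe sets, 1 was called with 20E against no hormone (tai, higher), where 2.16% of all probe sets were called and 1.76% were called higher. With 20E plus cycloheximide against cycloheximide it was again 1 of 11 (tai, higher), against 1.25% of all probe sets and 0.680% called higher. For 8 of the 11 the 95% interval of the 20E effect lay wholly within 1.3-fold in either direction, and the same number had such an interval in the presence of cycloheximide. The median log2 difference over the 11 was 0.06 with 20E alone, where that of all probe sets was -0.01, and -0.06 with cycloheximide present, where that of all probe sets was 0.02. Arrays did not overlap for 2 of the 11 with 20E alone, both higher with the hormone, where 20.6% of all probe sets did not overlap and 10.6% were higher. In the presence of cycloheximide it was 3 of the 11, all higher with the hormone, where the shares of all probe sets were 13.9% and 7.77%.

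**Figure D3:**
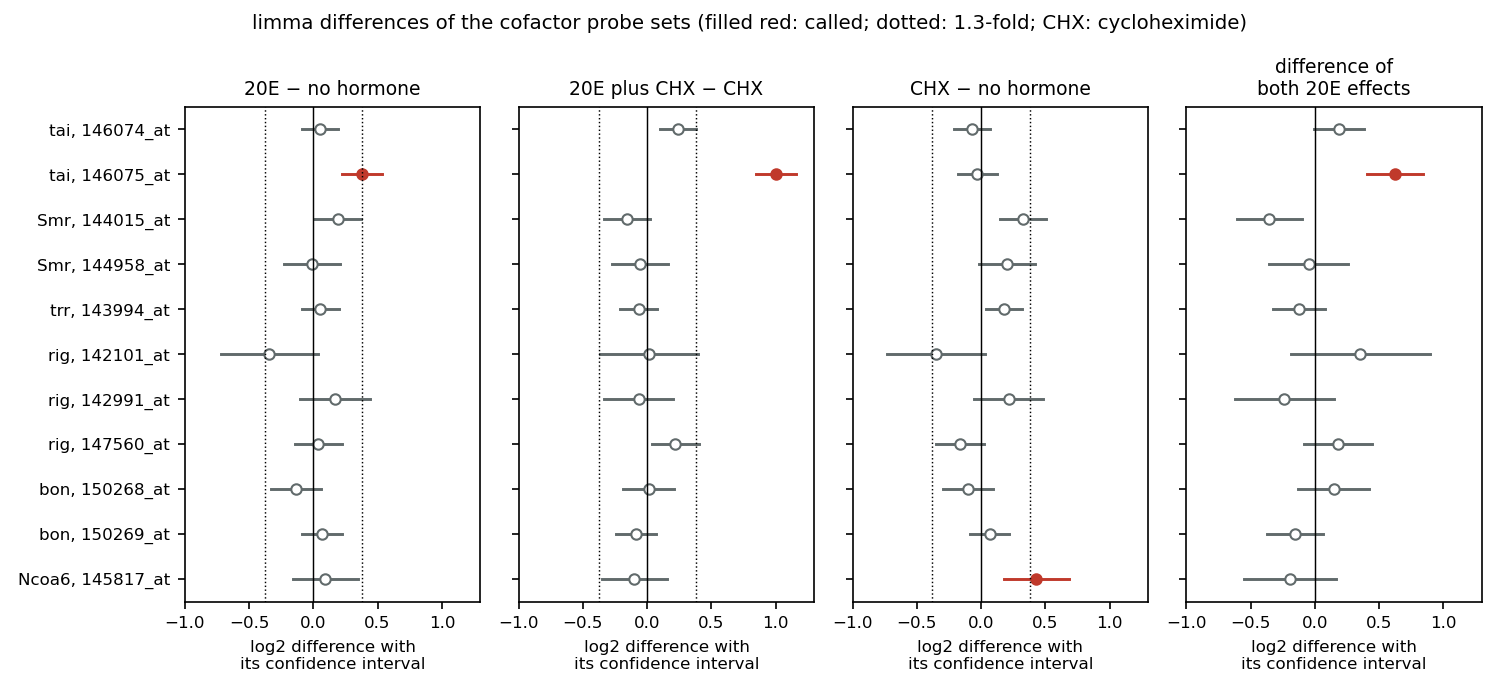
limma log2 difference with its 95% confidence interval (x axis) for each of the 11 probe sets (y axis), in 4 panels: 20E against no hormone, 20E plus cycloheximide against cycloheximide, cycloheximide against no hormone, and the interaction of 20E and cycloheximide. Filled red points were called and dotted lines mark 1.3-fold; tai 146075_at stands at 0.38, 1.00, -0.03 and 0.62, and Ncoa6 is the called probe set with cycloheximide at 0.43.

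Among the coactivators, Ncoa6 was higher with cycloheximide alone. It encodes the Drosophila counterpart of a mammalian nuclear receptor coactivator and is a subunit of the Trr complex. Its probe set, 145817_at, read 68.9, 65.5 and 55.9 with cycloheximide, against 47.6, 49.6 and 43.8 without hormone. The arrays did not overlap, and the log2 difference was 0.43 (SE 0.12, interval 0.18 to 0.68, 1.35-fold, limma adjusted p = 0.0618). The means were 63.4 ± 6.75 with cycloheximide and 47.0 ± 2.97 without hormone (SD, n = 3 each). All no hormone arrays lay under 50, and with a floor of 50 the difference was 0.34, under the fold limit. Nor was it called when replicate 2 (adjusted p = 0.120) or 3 (0.187) of the no hormone group, or cycloheximide replicate 1 (0.220) or 2 (0.127), was left out.

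20E moved Ncoa6 little. It stood at 53.2, 55.2 and 42.8 with 20E alone, a difference of 0.09 against no hormone (interval -0.16 to 0.35, limma adjusted p = 0.748), and the arrays overlapped. With 20E plus cycloheximide it stood at 60.6, 64.0 and 52.5, a difference of -0.10 against cycloheximide (interval -0.36 to 0.15, adjusted p = 0.845). The groups ran in the order cycloheximide, 20E plus cycloheximide, 20E and no hormone, with overlapping arrays between all neighbours.

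trr encodes a histone H3 lysine methyltransferase that acts with EcR. Its probe set, 143994_at, read 72.6, 78.9 and 71.7 with 20E, against 71.1, 73.4 and 70.2 without hormone, and these overlapped. The difference was 0.06 (interval -0.09 to 0.20, limma adjusted p = 0.735), and with cycloheximide present it was -0.07 (interval -0.21 to 0.07, adjusted p = 0.808). With cycloheximide alone the arrays, at 84.6, 79.7 and 78.6, all lay above those without hormone, by 0.18 (SE 0.06, interval 0.04 to 0.32), but this was not called (adjusted p = 0.151).

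The corepressor gene Smr, whose product binds the receptor in the absence of hormone, was measured by 144015_at and 144958_at. On 144015_at the arrays read 134, 122 and 111 with cycloheximide, against 93.8, 103 and 94.7 without hormone, and did not overlap. The difference of 0.33 (SE 0.08, interval 0.15 to 0.51) had a limma adjusted p of 0.0456 but, at 1.26-fold, was under the fold limit and was not called. Without cycloheximide replicate 3 it was called, at 0.40 (adjusted p = 0.0376). With 20E alone 144015_at read 109, 121 and 104, also above every array without hormone, and the difference was 0.19 (interval 0.02 to 0.37, adjusted p = 0.295). In the presence of cycloheximide the value was -0.16 (interval -0.34 to 0.02, adjusted p = 0.556), and its interaction of 20E and cycloheximide was -0.35 (interval -0.61 to -0.10, adjusted p = 0.236).

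The second probe set of Smr, 144958_at, read 225, 257 and 235 with 20E, against 221, 250.1 and 251 without hormone. These overlapped, with a difference of -0.01 (interval -0.23 to 0.21, limma adjusted p = 0.982). With 20E plus cycloheximide it read 261, 286 and 251, against 319, 268 and 247 with cycloheximide, a difference of -0.06 (interval -0.28 to 0.16, adjusted p = 0.906). The replicates of cycloheximide spread most here, with an SD of 37.2 around a mean of 278.

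bon encodes a TIF1 family protein that binds the nuclear receptor FTZ-F1 and can repress or activate. Its probe set 150268_at averaged 95.1 ± 9.56 with 20E, 98.0 ± 6.92 with 20E plus cycloheximide, 97.2 ± 6.18 with cycloheximide and 104 ± 6.83 without hormone (SD, n = 3 each). The 20E difference was -0.14 without cycloheximide (interval -0.33 to 0.06, limma adjusted p = 0.513) and 0.01 with it (interval -0.19 to 0.21, adjusted p = 0.985). The arrays of the groups overlapped in every comparison. The second probe set, 150269_at, lay between 76.7 and 90.2 on all 12 arrays, with 20E differences of 0.07 (interval -0.09 to 0.22) and -0.09 (interval -0.24 to 0.07). Neither probe set was called in any comparison.

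rig encodes a WD40 repeat protein that binds several nuclear receptors and is needed for responses to ecdysone at metamorphosis. It had 3 probe sets, of which 142101_at had the widest intervals of all 11. On 142991_at the means were 64.1 ± 8.53 with 20E, 63.0 ± 7.30 with 20E plus cycloheximide, 65.9 ± 6.60 with cycloheximide and 56.8 ± 5.87 without hormone (SD, n = 3 each), with overlapping arrays. On 142101_at the arrays with cycloheximide, at 38.5, 37.2 and 42.8, lay below those without hormone, at 58.5, 44.5 and 49.1, but the difference of -0.35 was not called (SE 0.17, interval -0.73 to 0.03, limma adjusted p = 0.269). For 20E alone the same probe set gave -0.34 (interval -0.72 to 0.04, adjusted p = 0.390), an interval that includes falls of more than 1.3-fold. Its 20E arrays read 34.1, 34.7 and 53.0, and without the third of these the difference was -0.55 (adjusted p = 0.137), while a floor of 50 gave -0.05. All 12 arrays read under 50 on 147560_at, and there the largest 20E difference was 0.22 with cycloheximide present (interval 0.03 to 0.40, adjusted p = 0.379).

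With cycloheximide alone, 1 of the 11 probe sets was called (Ncoa6, higher), where 4.42% of all probe sets were called and 3.55% were called higher. The arrays did not overlap for 6 of the 11, with 3 higher (Ncoa6, Smr 144015_at and trr) and 3 lower (tai 146074_at, rig 142101_at and rig 147560_at), against 27.1% of all probe sets (12.0% higher and 15.0% lower). With 20E plus cycloheximide against 20E, 1 of 11 was called (tai 146075_at, higher), where 1.99% of all probe sets were called and 0.981% were called higher. The arrays did not overlap for 1 of the 11 there, higher with 20E plus cycloheximide, against 17.9% of all probe sets and 8.62% higher.

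Probe sets of trr, Ncoa6 and Smr varied together over the arrays. Over the 12 arrays the log2 values of trr had Pearson correlations of 0.91 with Ncoa6, 0.89 with Smr 144015_at and 0.85 with Smr 144958_at. The same pairs had 0.80, 0.82 and 0.79 when each array was taken as its deviation from the mean of its group, so these probe sets also moved together among arrays of 1 group. tai 146075_at had 0.83 with tai 146074_at, but -0.12 as deviations from group means. The probe sets of bon had -0.03 with each other, and 0.17 as deviations. Those of rig had between -0.10 and 0.16, but 142101_at and 142991_at had 0.65 as deviations. Over all 55 pairs of probe sets the correlations ran from -0.69 (rig 142991_at with bon 150268_at) to 0.91, and as deviations from -0.81 (rig 142101_at with bon 150268_at) to 0.82. All values of an array share its RNA and its normalization, and these correlations are descriptions.

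The probe sets most like tai 146075_at over the 12 arrays were looked up after its values were seen, so neighbours that rose with 20E follow from that choice. Among 10625 candidate probe sets of other genes with a mean intensity of at least 50, the highest Pearson correlations were with Cyp18a1 (0.98), whose cytochrome P450 breaks down ecdysteroids, and Eip75B (0.98), a nuclear receptor of the early puffs. Then came pirk (0.97), a negative regulator of the Imd immune pathway, Hr4 (0.96), another nuclear receptor, and Blimp-1 (0.95), a zinc finger repressor. Eip75B averaged 719 with 20E, 1353 with 20E plus cycloheximide, 484 with cycloheximide and 483 without hormone. Hr4 averaged 190 with 20E, 262 with 20E plus cycloheximide, 116 with cycloheximide and 123 without hormone. By their means, each of these 5 genes had the same order of the upper groups as tai. Blimp-1 was not past the test with 20E alone (217 against 172 without hormone, limma adjusted p = 0.229). By rule 146074_at, with the higher mean, stands for the gene.

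**Figure D4:**
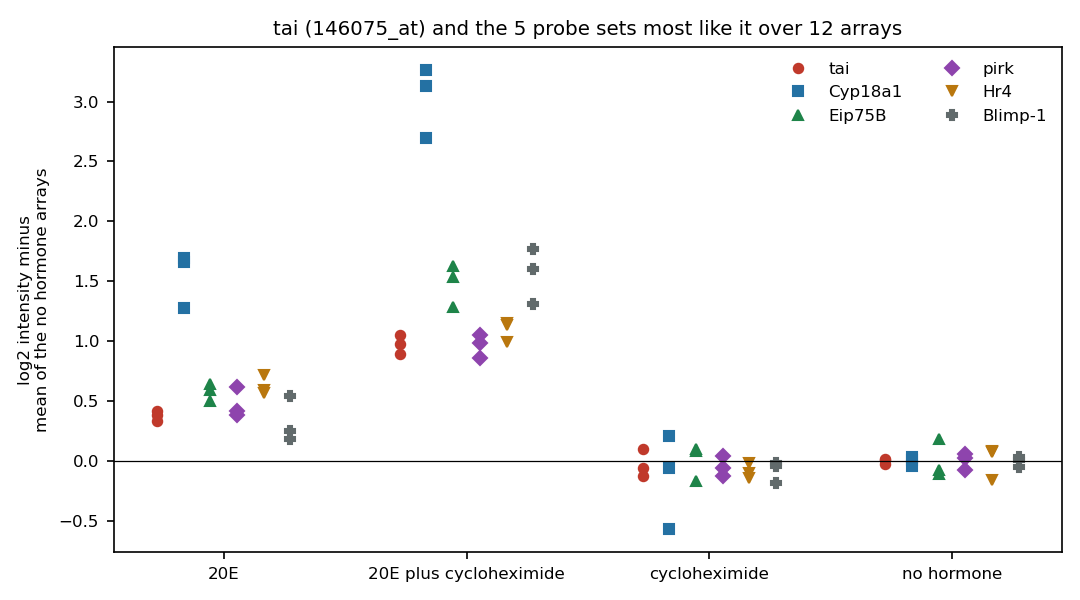
Log2 intensity of tai (146075_at) and of the 5 probe sets with the most similar pattern, each minus its own mean in the 3 no hormone arrays, by treatment; points are arrays. All 6 have their highest values with 20E plus cycloheximide, and the values with cycloheximide lie around those without hormone; the correlations with tai over 12 arrays are 0.95 to 0.98.

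The neighbours of tai 146074_at were MFS9 (0.88), Sans (0.88) and CG6048 (0.86), and Cyp18a1, the closest to 146075_at, came 4th (0.84). For trr they were mbc (0.99), which encodes an activator of Rac, trx (0.97), which encodes another histone H3 methyltransferase, and the chaperone gene Tpr2 (0.95), for Ncoa6 CG4887, scaf6 and Synd (0.96 each), and for Smr 144958_at TORIP (0.94), St4 (0.92) and Idgf2 (0.90). trx averaged 175 with 20E, 200 with 20E plus cycloheximide, 244 with cycloheximide and 161 without hormone, the same order of the groups as trr. Neighbours were chosen by correlation over these same arrays, so a shared order follows from that choice. The neighbours of rig 142991_at were SRPK (0.93), Not3 (0.93) and kuz (0.91), and those of bon 150268_at were Ctl1 (0.94), Toll-7 (0.93) and Golgin84 (0.92).

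EcR on 146672_at averaged 272 with 20E, 281 with 20E plus cycloheximide, 284 with cycloheximide and 301 without hormone, and usp had a 20E difference of -0.01 (SE 0.12, limma adjusted p = 0.993). Of 7 measured genes for the receptor and its chaperones, limma called none in the 4 pairwise comparisons and the test of both 20E effects, with 0 to 2 genes at an unadjusted p under 0.05 in each. A SAM-type permutation test, the test of the study's methods, called 1 of these, DnaJ-1, with 20E plus cycloheximide against 20E (log2 difference -0.46, limma adjusted p = 0.324). The share of all probe sets that the SAM-type test called is not given here, so its counts in these lists stand without a background. A second probe set of EcR, 154377_at, gave 0.34 with 20E alone (SE 0.14, adjusted p = 0.291). With both agents against none, a contrast added later, it gave 0.62 (SE 0.14, limma adjusted p = 0.0311) and was called, as were 4.22% of all probe sets.

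Of the 8 other subunits of the Trr complex, all measured, limma called none in any of these comparisons, with 0 to 2 at an unadjusted p under 0.05 in each. Lpt, which carries PHD fingers found in the related mammalian methyltransferases, had the smallest adjusted p. It averaged 65.7 with 20E plus cycloheximide and 53.1 with 20E, a difference of 0.31 (SE 0.07, adjusted p = 0.0462) under the fold limit. SAM called 1 of the 8, the histone demethylase gene Utx, with cycloheximide alone (142553_at, 0.40, limma adjusted p = 0.223). The second probe set of Utx, 141951_at, went the other way, with a mean of 48.4 with cycloheximide and 53.8 without hormone.

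Among 12 measured genes of other corepressor and chromatin cofactors, Sin3A, the scaffold of a histone deacetylase complex that Smrter binds, rose with cycloheximide alone. It averaged 176 with cycloheximide and 99.9 without hormone, a difference of 0.81 (SE 0.15, limma adjusted p = 0.0118), and with 20E plus cycloheximide it stood at 133. No other of the 12 was called on the probe set that stands for it. A second probe set of brm, which encodes the ATPase of a chromatin remodelling complex, also rose with cycloheximide (142840_s_at, 0.47, SE 0.11, limma adjusted p = 0.0323) and is named here after its value was seen. The probe set that stands for brm had -0.06 in the same comparison (SE 0.13, adjusted p = 0.819). The 20E comparisons had none called by limma or SAM, with 3 at an unadjusted p under 0.05 for 20E alone and 1 in the presence of cycloheximide. The probe set of Sin3A was named through the study's own list of changed genes, so its call is not independent evidence.

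Direct and early targets of 20E gave the scale of the hormone response in these organs. Of 14 measured, 9 rose and 1, ftz-f1, fell with 20E alone, with a median log2 difference of 0.73. With cycloheximide present, 8 rose and 1, again ftz-f1, fell, with the same median. Of all probe sets, 2.16% were called with 20E alone and 1.25% with cycloheximide present. Sox14 and vri were picked by the study as 20E-induced from these arrays, so their rises are not independent evidence. ftz-f1 is on the list although the study describes its βFTZ-F1 transcript in mid-prepupae, later than the early genes. It averaged under 50 in every group: 21.1 with 20E, 27.7 with 20E plus cycloheximide, 43.3 with cycloheximide and 34.3 without hormone. The counts of the 14 genes use the brightest probe set of each gene. A second probe set of Hr3, 143123_at, was called higher in both comparisons (0.63, limma adjusted p = 0.0935, and 1.10, 0.00641). br 144385_at was called with cycloheximide present (0.51, adjusted p = 0.0821), where the other probe sets of br were not. Eip74EF had a difference of 3.45 (SE 0.24, limma adjusted p = 3.63e-05) with 20E alone and 2.50 (SE 0.24) with cycloheximide present. Its means were 399 with 20E, 455 with 20E plus cycloheximide, 78.6 with cycloheximide and 36.2, under 50, without hormone. Eip74EF was also called higher with cycloheximide alone (limma adjusted p = 0.0238), so its 20E effects start from different levels. Eip75B had 0.58 (SE 0.11) with 20E alone and 1.48 (SE 0.11) with cycloheximide present. The difference between both effects of 20E was called for Cyp18a1 (1.62, SE 0.27, adjusted p = 0.0867) and Eip75B (0.90, SE 0.16, adjusted p = 0.0942), both larger with cycloheximide as for tai. The probe sets of Eip74EF and Eip75B, too, were named through the study's lists.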

How the data were processed

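RNA of 12 samples of cultured organs was hybridized to Affymetrix Drosophila Genome Arrays, 1 sample per array. As deposited, the values are dChip intensities on a linear scale, made and normalized by the authors, 1 per probe set; detection calls were not used here, and the number of arrays limits their precision. A floor of 10 was applied before taking log2. The 4 groups were fitted in 1 model with limma 3.58.1 in R 4.3.3 (eBayes, prior variance following intensity; all tests two-sided), which was checked on simulated data. The difference between both 20E effects, an interaction, was called on the adjusted p alone.

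The platform table gave 12442 probe sets exactly 1 gene and 327 several; 198 of the rest were named through the study's lists, which chose genes on these arrays, and 999 stayed unnamed. All probe sets of the cofactors were named by the platform table. Symbols and transcript numbers are from RefSeq. All probe sets of the 6 members are described, and from each list EcR, usp, Eip74EF, Eip75B and up to 4 genes with the smallest adjusted p; the brightest probe set stands for a gene in lists. Neighbours are the 3 highest Pearson correlations with each gene's brightest probe set. Members and lists were chosen with earlier results of these data known; 2 more contrasts, used for the order of groups, were added later. Sequences were not analysed here.

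Alternatives were quantile normalization, centring, other floors, log2 of the intensity plus 16, leaving out dim probe sets, another threshold, no fold limit, no trend, a fit of 6 arrays, a SAM-type test with all 20 label permutations (the methods' test), each array left out, and the replicate number as a block. Deviations of equally numbered arrays correlated for cycloheximide and no hormone (0.41, 0.21 and 0.29), but not in all pairs of the other comparisons. For 20E plus cycloheximide and 20E the correlations were 0.39, 0.55 and 0.09 for replicates 1, 2 and 3. The reported fit used no pairing, and the replicate number entered only as the block of that alternative.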

Additional observations from a re-analysis of the deposited data

Results flagged for a closer look

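The effect of 20E was larger with cycloheximide than without it for tai 146075_at by 0.62 on the log2 scale, and 2 of the direct and early 20E targets had such a difference too, Cyp18a1 by 1.62 and Eip75B by 0.90. Over the 14 targets the difference was positive for 7, with a median of 0.0026. The lowest values were -0.95 for Eip74EF (adjusted p = 0.263) and -0.80 for br (adjusted p = 0.263), neither past the test. Both genes were among the 5 of the 14 called higher with cycloheximide alone (limma adjusted p = 0.0238 and 0.0805). Their 20E effects were therefore taken from a higher level with cycloheximide than without it. The differences of tai, Cyp18a1 and Eip75B were flagged because each was itself past the test (limma interaction term, adjusted p under 0.10). In that test 0.136% of all probe sets were called. For tai the 3 arrays with 20E plus cycloheximide lay above the 3 arrays with 20E. That order concerns cycloheximide in 20E-treated organs and is not a test of the interaction. The interaction call of tai (limma adjusted p = 0.0842) ended at an adjusted p under 0.05 and when any of several single arrays was left out. The response of tai 146074_at did not differ past the test (0.19, adjusted p = 0.350). The cause of the difference was not tested.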

How the results depend on the processing

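Over the alternatives, 35 of 993 values changed sign, in 12 of 55 differences, none of them called, and no value with a changed sign exceeded 0.12 in size. With 20E plus cycloheximide against cycloheximide, rig 142101_at moved to -0.0045 with quantile normalization and -0.0019 with centred arrays, and bon 150268_at to -0.0076 and -0.0040. Against 20E, rig 142101_at moved to -0.028 with a floor of 50 and -0.0030 with log2 of the intensity plus 16. With 1 array left out, the ranges that crossed 0 were, for 20E plus cycloheximide against cycloheximide, -0.108 to 0.138 (rig 142101_at), -0.0322 to 0.0680 (bon 150268_at) and -0.139 to 0.0460 (Smr 144958_at); against 20E, -0.120 to 0.208 (rig 142101_at), -0.0705 to 0.0632 (rig 147560_at), -0.0722 to 0.0371 (Smr 144015_at), -0.138 to 0.0421 (rig 142991_at) and -0.0321 to 0.114 (bon 150268_at); for 20E against no hormone, -0.0703 to 0.0330 (Smr 144958_at) and -0.0073 to 0.126 (rig 147560_at); for both 20E effects, -0.130 to 0.0546 (Smr 144958_at); and for cycloheximide against no hormone, -0.0913 to 0.0184 (tai 146075_at). Of the cofactor probe sets, 1 was called in each comparison, with these exceptions. The 20E call of tai became 0 with centred arrays (log2 0.37, adjusted p = 0.0275) and with log2 of the intensity plus 16 (0.31), both under the fold limit. The cycloheximide call of Ncoa6 became 0 with a floor of 50, with log2 of the intensity plus 16 (0.33) and at an adjusted p under 0.05, and the count was 2 with no fold limit, when Smr 144015_at joined. The interaction count was 0 at an adjusted p under 0.05, and each of the 5 counts was 0 when the dimmest probe sets (0.333) were left out, since tai 146075_at and Ncoa6 were then not tested. With 1 array left out the counts ran from 0 to 1 for 20E, 0 to 2 for cycloheximide and 0 to 1 for the interaction, and stayed at 1 otherwise. With the replicate number as a block, each count was 1, and no cofactor call changed (tai interaction adjusted p = 0.0828, Ncoa6 with cycloheximide 0.00468). The counts over all probe sets ranged from 105 to 446 for 20E (301 as reported), 88 to 271 with cycloheximide present (175), 300 to 1077 for cycloheximide (617), 115 to 417 for 20E plus cycloheximide against 20E (278) and 1 to 274 for the interaction (19). Without detection calls, which levels under 50, such as those of rig, Ncoa6 and ftz-f1, stood above background is unknown.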
